A study of Mus musculus with 12 samples.

Results

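Expression of 10 genes for inflammatory cytokines, their antagonist and their receptors was followed in mouse alveolar macrophages, the resident phagocytes of the air spaces. They were taken by symbol from the table of raw read counts: Il1a, Il1b, Il1rn, Il18, Tnf, Il6, Il10, Il15, Il15ra and Il6ra. All 10 were found among 23413 genes, and 8 of them passed the filter on low counts that left 12748 genes for testing. Il6 and Il10 did not pass it. Vitamin D3 in culture raised Il1a and Il1rn and lowered Il18. Cells labelled Vdr knockout held about 2.01 times the Il15ra of wild-type cells over both ages. Il6ra was higher at 10 than at 4 weeks in both genotypes. Cultured untreated cells held more Il1a and less Il1b, Il1rn, Il18, Il15ra and Il6ra than fresh wild-type cells.

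Interleukin-1 alpha, interleukin-1 beta and interleukin-18 belong to the interleukin-1 family. Interleukin-1 beta and interleukin-18 are made as precursors that caspase-1 cuts in the inflammasome, and the interleukin-1 receptor antagonist occupies the interleukin-1 receptor without signalling. Tumour necrosis factor and interleukin-6 are early products of macrophages that meet microbes, and interleukin-10 restrains them. Interleukin-15 is held on the cell surface by its alpha receptor chain and presented to lymphocytes that carry the shared beta and gamma chains.

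The 12 libraries fell into 6 groups of 2. VD3-treated cells were wild-type alveolar macrophages kept in culture for 24 h with 50 nM vitamin D3, and untreated cells were wild-type macrophages kept for 24 h with no agent. Fresh cells came by lavage from mice labelled VDR knockout at 10 weeks, wild type at 10 weeks, VDR knockout at 4 weeks and wild type at 4 weeks. The labels do not give the strain, the deleted part of Vdr, whether the deletion is confined to a cell type, the age of the cultured cells or whether libraries of a group are separate animals. P-values therefore rest on the spread among the libraries alone, part of which may be technical. The replicates of VD3-treated cells are numbered 1 and 3, and those of the other groups 1 and 2. The library titles carry numbers from 2 ranges. Replicate 1 of the cultured and 10-week groups has a title from the first range, and all other libraries, the 4-week ones included, have titles from the second. The labels do not say what the ranges stand for.

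Total counts ran from 10409572 to 23233674, so 1 count was worth 0.0483 to 0.0903 CPM (counts scaled to a common library size, with TMM factors). Vdr, the targeted gene and the vitamin D receptor, was still read in every library. At 10 weeks its level was 84.2 and 45.0 CPM under the knockout label, against 79.5 and 126.8 CPM in wild type. The 4-week cells held 45.9 and 31.2 CPM under the knockout label, against 56.5 and 57.7 CPM in wild type. Vdr did not pass edgeR's quasi-likelihood test at either age (adjusted p = 0.538 at 10 weeks and 0.527 at 4 weeks). A deletion that leaves transcript elsewhere in the gene could not be seen in counts per gene, so Vdr does not check these labels. The description codes of 10-week knockout replicate 1 and of 10-week wild-type replicate 2 name the opposite genotype. Xist, the RNA that silences an X chromosome in females, was at 787 and 800 CPM in replicate 2 of both 10-week groups. The other 10 libraries held under 1 CPM. Each 10-week group thus held 1 such library and the 4-week groups none, so comparisons of age also differ in Xist. Of 14 alveolar macrophage marker symbols 12 were in the table (Siglecf and Chil3 are other names of Siglec5 and Chi3l3), and those 12 were read in every library. They summed to 12140 to 14050 CPM in cultured and 23680 to 43440 CPM in fresh cells, most of it Chi3l3 in fresh cells, while Car4 was at 0.656 and 0.971 CPM in untreated culture. Vdr in culture was at 72.1 and 42.4 CPM with VD3, against 7.82 and 7.61 CPM without (log2 2.89 ± 0.36, adjusted p = 0.000433, edgeR). Untreated culture was lower in Vdr than 10-week wild type (log2 -3.73 ± 0.37, adjusted p = 1.13e-05, edgeR). Cyp24a1 encodes the vitamin D degrading enzyme and is a classical target of the receptor. In culture it was at 484.7 and 215.5 CPM with VD3, against 0.383 and 0.243 CPM without.

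Promoter sequence from the RefSeq table (build GRCm38.p6) was matched for 8 of the 10 genes, with 11 start sites. Il10 and Il15 had no entry. The stretches below belong to the 3 genes that changed with VD3 and to the gene that was higher in knockout-labelled cells, and capitals mark TGANTCA, the motif of AP-1 factors. Il1a lies on chromosome 2 (chr2:129309973-129310122, minus strand), with the motif 12 bases before the start site. For Il1rn (chr2:24336700-24336849, plus strand) it lies 141 bases before the first start site. The stretch for Il18 (chr9:50554550-50554699, plus strand) has none. For Il15ra (chr2:11705582-11705711, plus strand) the motif lies 30 bases before the second start site. The windows of the other start sites of Il1rn and Il15ra held no such motif. Counts per gene do not show which start site is in use.
Il1a: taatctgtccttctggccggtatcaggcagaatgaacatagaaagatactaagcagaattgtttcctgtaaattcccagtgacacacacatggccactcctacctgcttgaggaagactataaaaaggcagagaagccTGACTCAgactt
Il1rn: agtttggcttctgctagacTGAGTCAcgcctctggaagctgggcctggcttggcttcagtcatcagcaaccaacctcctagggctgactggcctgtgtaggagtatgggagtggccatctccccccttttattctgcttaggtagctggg
Il18: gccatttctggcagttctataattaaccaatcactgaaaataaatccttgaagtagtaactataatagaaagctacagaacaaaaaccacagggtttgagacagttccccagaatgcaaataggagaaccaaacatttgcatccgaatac
Il15ra: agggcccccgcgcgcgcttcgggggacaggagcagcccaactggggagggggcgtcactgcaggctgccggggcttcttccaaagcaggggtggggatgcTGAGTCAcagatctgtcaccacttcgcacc
Within 250 bases before the start site, TGANTCA on either strand was found in 4 of 11 windows, in Il1a, Il1rn, Il6 and Il15ra, and in 6.75% of 32851 windows of all genes. The NF-kB consensus, searched in the forms found in 1.41% and 1.53% of all windows, was in 2 of the 11, one of Il1rn and that of Il6. No window held the direct repeat of half-sites spaced by NNN that the vitamin D receptor binds (each being AGGTCA or alternatively GGGTCA or alternatively AGTTCA or alternatively GGTTCA), which was in 0.0396% of all windows. At a share that low, no match in 11 windows does not set these genes apart. A match is a run of letters, and binding was not measured.

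The 10 genes covered a wide range of levels. Per kilobase of exon, Il18 was the most abundant in fresh cells, with group means of 198 to 207 CPM per kb. Il1rn followed at 84.1 to 114 CPM per kb, and Il15 was the lowest of the 8 tested genes at 2.03 to 2.8 CPM per kb. With VD3 in culture Il1a reached 78.1 CPM per kb, above Il1rn at 65 and Il18 at 41.9 CPM per kb. Without VD3 the order was Il18 at 87.6, Il1a at 41.6 and Il1rn at 34 CPM per kb.

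**Figure D1:**
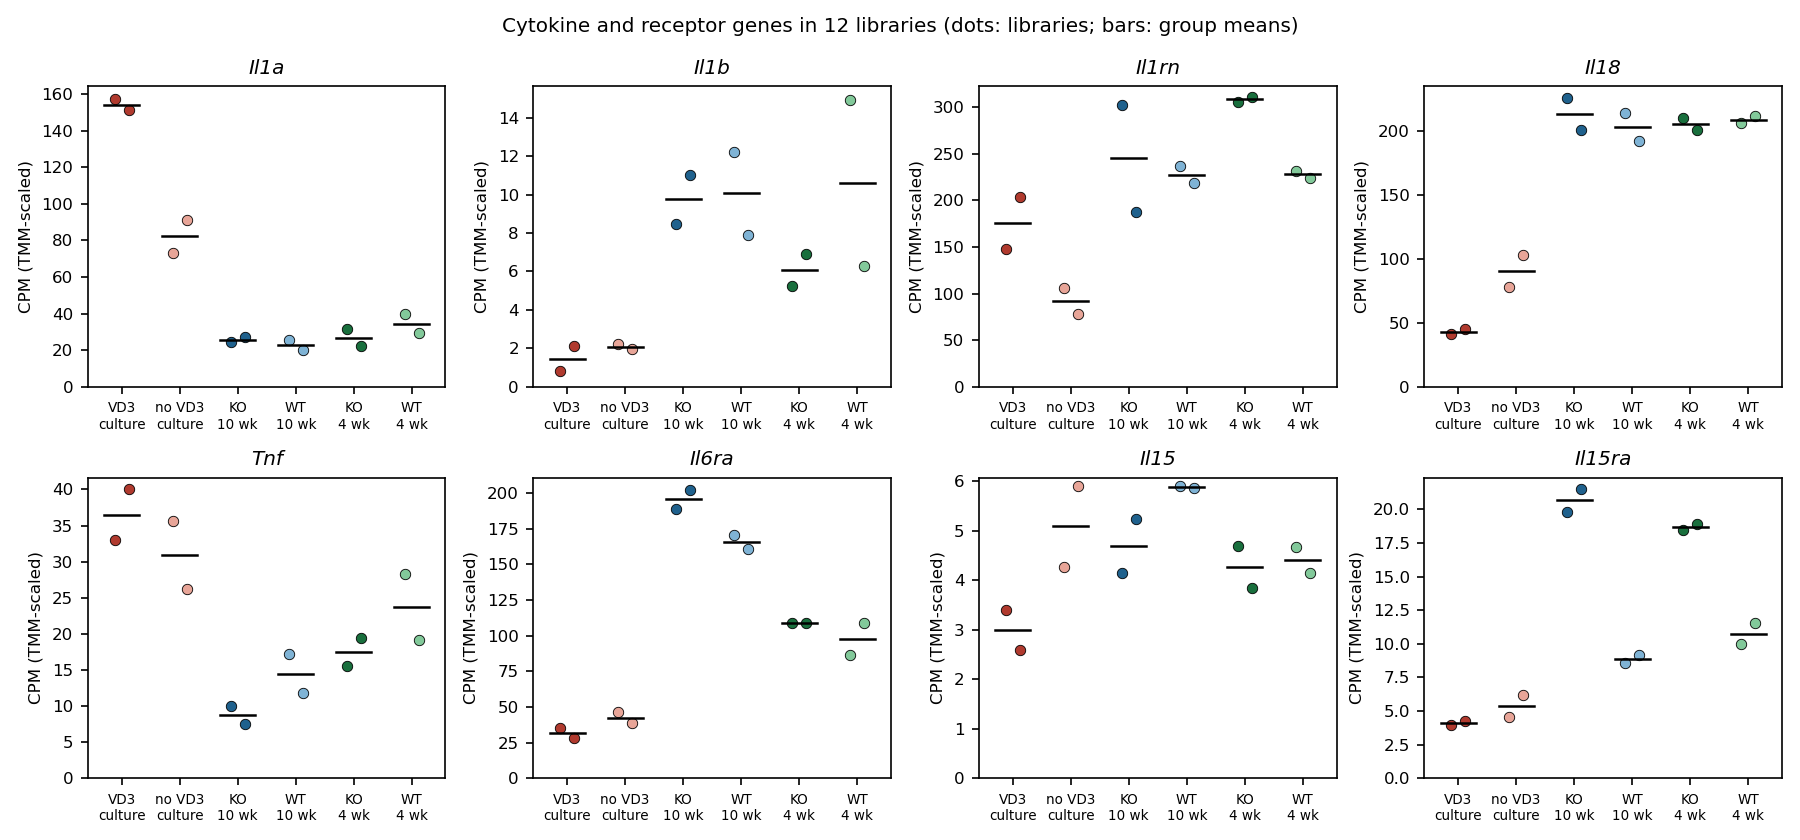
Level of each of the 8 tested genes (CPM, linear axes from 0) in each of the 12 libraries, by group, with a point for each library and a line for the mean of 2. Il1a stands highest with VD3 in culture, at 151 and 157.5 CPM, and Il15ra highest in knockout-labelled 10-week cells, at 19.8 and 21.5 CPM.

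Interleukin-1 alpha is an agonist of the interleukin-1 receptor that is active in its precursor form. Il1a was at 157.5 and 151 CPM with VD3, against 73.3 and 91.0 CPM without. The groups did not overlap, as was the case for 48.9% of all genes, and Il1a rose 1.88-fold (log2 fold change 0.91 ± 0.18, SE; adjusted p = 0.00824, edgeR). The call was lost without VD3 replicate 1 (adjusted p = 0.0589, edgeR) or without untreated replicate 1 (0.0733). The differences of log2(CPM + 1) were 1.09 and 0.724 within the first and second title ranges. In fresh cells Il1a was at 24.4 and 27.3 CPM in knockout-labelled 10-week cells, 25.4 and 20.3 CPM in wild type at 10 weeks, 31.5 and 22.2 CPM in knockout-labelled 4-week cells and 39.8 and 29.3 CPM in wild type at 4 weeks. All 8 fresh libraries were below all 4 cultured ones, and the share of all genes separated in this way was not computed. Against wild type at 10 weeks, untreated culture was 3.58-fold higher (log2 1.84 ± 0.19, adjusted p = 1.92e-05, edgeR), and against wild type at 4 weeks 2.38-fold (log2 1.25 ± 0.19, adjusted p = 0.000292). These comparisons share the untreated libraries with the one for VD3. Wild-type cells had lower values at 10 than at 4 weeks (log2 -0.59 ± 0.19), which did not pass (adjusted p = 0.134, edgeR).

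Il1b, which encodes the agonist released through the inflammasome, went the other way in culture. It was at 0.836 and 2.11 CPM with VD3, against 2.24 and 1.94 CPM without, and the groups overlapped (adjusted p = 0.586, edgeR). Fresh cells held 8.48 and 11.02 CPM in knockout-labelled 10-week cells, 12.2 and 7.91 CPM in wild type at 10 weeks, 5.26 and 6.93 CPM in knockout-labelled 4-week cells and 14.9 and 6.27 CPM in wild type at 4 weeks. Every cultured library was below every fresh one, a separation whose share over all genes was not computed. Untreated culture was 4.80-fold lower than wild type at 10 weeks (log2 -2.26 ± 0.47, adjusted p = 0.00232, edgeR) and 4.98-fold lower than at 4 weeks (log2 -2.32 ± 0.47, adjusted p = 0.00211). The 2 wild-type libraries at 4 weeks lay far apart, and no genotype or age comparison of Il1b passed.

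Il1rn, the gene of the receptor antagonist, was at 147.6 and 204.1 CPM with VD3, against 106.1 and 77.8 CPM without. It rose 1.91-fold (log2 0.93 ± 0.22, adjusted p = 0.0176, edgeR), with no overlap. The adjusted p was 0.101 without VD3 replicate 3 and 0.101 without untreated replicate 2 (edgeR), and the differences of log2(CPM + 1) within the title ranges were 0.472 and 1.38. Fresh libraries held 302 and 187.8 CPM in knockout-labelled 10-week cells, 236.8 and 218.5 CPM in wild type at 10 weeks, 305.5 and 311 CPM in knockout-labelled 4-week cells and 231.7 and 224.3 CPM in wild type at 4 weeks. Untreated culture was 2.47-fold lower than wild type at 10 weeks (log2 -1.31 ± 0.22, adjusted p = 0.000558, edgeR) and 2.48-fold lower than at 4 weeks (adjusted p = 0.000577). At 4 weeks both knockout-labelled libraries were above both wild-type ones, and the difference did not pass (adjusted p = 0.448, edgeR). Groups that do not overlap occurred for 48.6% of all genes in that comparison.

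The balance of antagonist to agonist was taken as a ratio of levels per kb within a library. With Il1a as the agonist it separated fresh from cultured cells, and with Il1b it did not. Il1rn to Il1a was 0.684 and 0.986 with VD3 and 1.06 and 0.624 without. In fresh cells it was 9.04 and 5.02 in knockout-labelled 10-week cells, 6.82 and 7.87 in wild type at 10 weeks, 7.07 and 10.2 in knockout-labelled 4-week cells and 4.25 and 5.59 in wild type at 4 weeks. The cultured ratios all lay below the fresh ones, and those with and without VD3 overlapped. Il1rn to Il1b was 88.5 and 48.5 with VD3, against 23.7 and 20.1 without, with no overlap. It rests on few counts of Il1b in culture, 17 and 30 with VD3 and 41 and 24 without, and Il1b itself overlapped there. In fresh cells that ratio ranged from 7.77 to 29.1, which includes both values of untreated culture. These ratios were not tested.

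**Figure D2:**
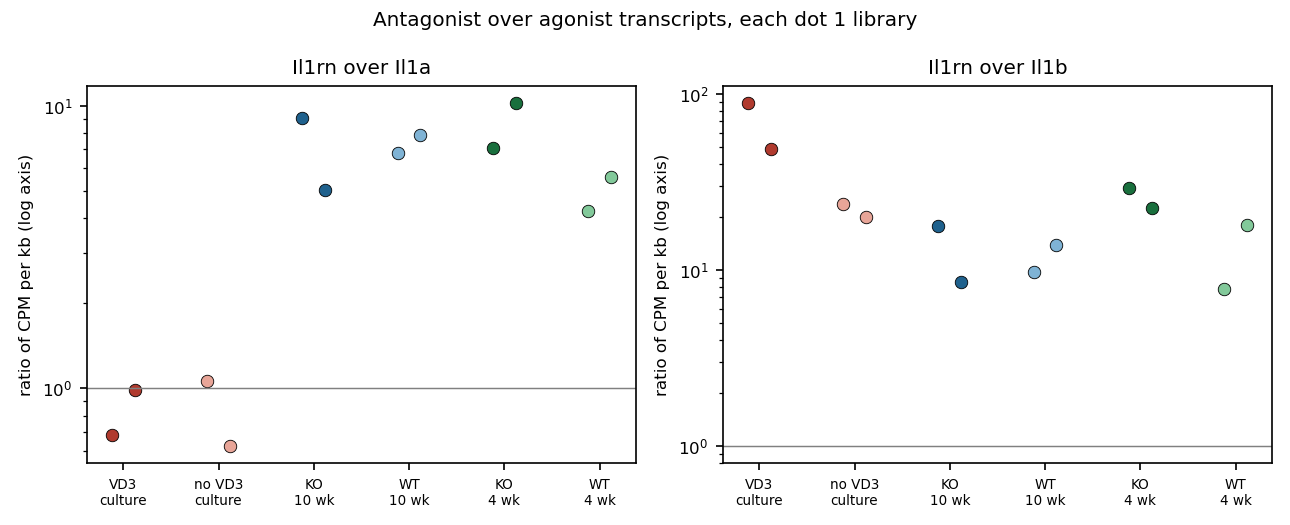
Ratio of levels per kb within each library (log axes), for Il1rn over Il1a and Il1rn over Il1b, by group, with a point for each library and a line at a ratio of 1. Il1rn to Il1a is between 0.624 and 1.06 in the 4 cultured libraries and between 4.25 and 10.2 in the 8 fresh ones.

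Il18 encodes a cytokine that drives interferon gamma production by lymphocytes. It was at 41.0 and 45.4 CPM with VD3, against 77.8 and 102.8 CPM without. The groups did not overlap and Il18 was 2.09-fold lower with VD3 (log2 -1.06 ± 0.14, adjusted p = 0.00046, edgeR). The call held with each library left out in turn (highest adjusted p = 0.00849, edgeR), and the differences of log2(CPM + 1) within the title ranges were -0.91 and -1.16. In fresh cells Il18 lay in a narrow range, at 226.2 and 201.1 CPM in knockout-labelled 10-week cells, 214.5 and 192.8 CPM in wild type at 10 weeks, 210.5 and 200.9 CPM in knockout-labelled 4-week cells and 206.2 and 211.7 CPM in wild type at 4 weeks. No genotype or age comparison of it passed. Untreated culture was 2.26-fold lower than wild type at 10 weeks (log2 -1.18 ± 0.13, adjusted p = 3.21e-05, edgeR) and 2.32-fold lower than at 4 weeks (log2 -1.21 ± 0.13, adjusted p = 2.66e-05).

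Tnf was at 32.9 and 40.0 CPM with VD3, against 35.6 and 26.2 CPM without, and the groups overlapped (adjusted p = 0.62, edgeR). Fresh cells held 10.0 and 7.59 CPM in knockout-labelled 10-week cells, 17.2 and 11.8 CPM in wild type at 10 weeks, 15.6 and 19.5 CPM in knockout-labelled 4-week cells and 28.3 and 19.2 CPM in wild type at 4 weeks. Untreated culture was 2.12-fold higher than wild type at 10 weeks (log2 1.08 ± 0.25, adjusted p = 0.00407, edgeR). Against wild type at 4 weeks it did not pass (adjusted p = 0.215, edgeR). Between ages, knockout-labelled cells were 1.96-fold lower at 10 weeks (log2 -0.97 ± 0.26, adjusted p = 0.0376, edgeR), a call lost with each of the 4 libraries left out (adjusted p = 0.0739 to 0.232). Wild-type cells gave log2 -0.69 ± 0.25, which did not pass (adjusted p = 0.158, edgeR), and the interaction of genotype and age did not pass for Tnf (adjusted p = 0.888). Between genotypes the values at 10 weeks did not overlap, with log2 -0.71 ± 0.26 for knockout-labelled against wild type, which did not pass (adjusted p = 0.378, edgeR). Groups without overlap made up 40.6% of all genes there.

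Il6 and Il10 were close to absent. Il6 had 26 counts in all 12 libraries, and at most 0.559 CPM in any. It had 2 and 3 counts in knockout-labelled 10-week cells, 0 and 1 in wild type at 10 weeks, 1 and 1 in knockout-labelled 4-week cells and 8 and 4 in wild type at 4 weeks. With VD3 it had 0 and 3 counts, against 0 and 3 without. At 4 weeks the 2 counts of knockout-labelled cells stood against 12 of wild type, a ratio of 0.177 (95% interval 0.0192 to 0.795, exact binomial). The same 12 counts stood against 1 in wild type at 10 weeks, a ratio of 0.0881 for 10 over 4 weeks (0.00206 to 0.595), and against 3 in untreated culture, a ratio of 0.234 for untreated over wild type at 4 weeks (0.0423 to 0.866). In the other 4 comparisons of Il6 the interval held a ratio of 1. Such intervals cover counting error only and do not test the conditions. Il10 had 1 count, in knockout-labelled 4-week replicate 1. The limit that 0 counts would allow over 12 libraries is 0.0152 CPM, from 3 counts.

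Il6ra encodes the chain that binds interleukin-6. It was at 188.9 and 202.3 CPM in knockout-labelled 10-week cells and 170.5 and 160.6 CPM in wild type at 10 weeks, and at 108.9 and 108.8 CPM in knockout-labelled 4-week cells and 86.6 and 108.8 CPM in wild type at 4 weeks. All 10-week libraries were above all 4-week libraries, also within the second title range, which holds replicate 2 of the 10-week groups. Those replicates are the 2 libraries with high Xist, and every 4-week library had under 1 CPM of it. Within that range age and the Xist difference cannot be told apart. Groups without overlap made up 57.3% of all genes for age in knockout-labelled cells and 54.6% in wild type. At 10 against 4 weeks it was 1.80-fold higher in knockout-labelled cells (log2 0.85 ± 0.14, adjusted p = 0.00397, edgeR) and 1.69-fold higher in wild type (log2 0.76 ± 0.14, adjusted p = 0.0186). The first call was lost without knockout-labelled 4-week replicate 2 (adjusted p = 0.0511, edgeR). The wild-type call was lost without 10-week replicate 1 (0.153), 10-week replicate 2 (0.0556) or 4-week replicate 1 (0.176). With VD3 it was at 35.2 and 28.6 CPM, against 46.4 and 38.5 CPM without, and the difference of log2 -0.41 ± 0.14 did not pass (adjusted p = 0.0973, edgeR), with -0.388 and -0.415 for log2(CPM + 1) within the title ranges. Untreated culture was 3.90-fold lower than wild type at 10 weeks (log2 -1.96 ± 0.14, adjusted p = 1.29e-06, edgeR) and 2.30-fold lower than at 4 weeks (log2 -1.202 ± 0.14, adjusted p = 4.45e-05).

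Il15ra, the chain that presents interleukin-15, was the member called between genotypes. It was at 19.8 and 21.5 CPM in knockout-labelled 10-week cells, against 8.61 and 9.18 CPM in wild type. The 4-week levels were 18.5 and 18.9 CPM in knockout-labelled cells, against 9.99 and 11.5 CPM in wild type. The 4 knockout-labelled libraries were all above the 4 wild-type ones. Groups without overlap made up 40.6% of all genes at 10 weeks and 48.6% at 4 weeks. The share for both ages together was not computed. Il15ra was 2.32-fold higher at 10 weeks (log2 1.22 ± 0.18, adjusted p = 0.0303, edgeR) and ranked 9 by p among 12748 genes. At 4 weeks the difference of log2 0.79 ± 0.17 did not pass (adjusted p = 0.0701, edgeR). Over both ages Il15ra was 2.01-fold higher (log2 1.004 ± 0.12, adjusted p = 0.00395, edgeR).

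The 10-week call of Il15ra was lost without knockout-labelled replicate 2 (adjusted p = 0.13, edgeR), wild-type replicate 1 (0.322) or wild-type replicate 2 (0.149), with log2 differences between 1.16 and 1.27 in all 4 such fits. Over both ages the call held with each of 8 libraries left out (highest adjusted p = 0.0371, edgeR). With the genotypes of the libraries in conflict exchanged, the 10-week difference was log2 0.10 (adjusted p = 0.997, edgeR) and that over both ages log2 0.45 (0.718). Pairing libraries of the same number at 10 weeks, the knockout minus wild-type differences of log2(CPM + 1) were 1.12 in the libraries without Xist, which are those of the first title range, and 1.14 in those with it. Without the Xist pair the 10-week difference was log2 1.2. That leaves 1 library a group, so its adjusted p (0.32, edgeR) rests on the spread in the other groups and does not test the call.

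Markers of alveolar macrophages and of other cell types also differed between these groups. Of the 12 macrophage markers, Marco was called higher in knockout-labelled cells at 4 weeks, at 2194 and 2085 CPM against 443 and 454.8 CPM. The log2 difference was 2.25 ± 0.31 (adjusted p = 0.00674, edgeR). At 10 weeks Marco had lower values and 0 of the 12 were called. Fabp1 was called lower over both ages (log2 -1.09 ± 0.23, adjusted p = 0.0472, edgeR). Over both ages 8 of 11 dendritic cell markers tested had lower values in knockout-labelled cells (median log2 -1.1), and 3 were called lower, Fscn1, Ccl22 and Itgae (edgeR). At 10 weeks 8 of the 11 (median log2 -0.84) and at 4 weeks 9 of the 11 (median log2 -1.12) had lower values, with none past the threshold at either age. Their summed level ran the other way at 4 weeks, at 499.6 to 506.6 CPM in knockout-labelled cells, against 424.3 to 469 CPM in wild type, and nearly all of it was Ly75, at 479.4 and 455 CPM against 345.3 and 377.8 CPM. At 10 weeks the sums were 486.5 to 489.4 CPM and 442.9 to 500.7 CPM. All 9 T cell markers tested at 10 weeks (median log2 -2) and 8 of the 9 at 4 weeks (median log2 -0.595) had lower values in knockout-labelled cells, and 1 was called, Cd2 at 4 weeks. Nearly all of the T cell sum was Cd2. It was at 234.1 and 202.2 CPM in knockout-labelled against 235.8 and 245.5 CPM in wild-type cells at 10 weeks, and at 127.6 and 136.5 CPM against 203.7 and 182.3 CPM at 4 weeks. Cd3e, which defines T cells, was at 1.35 CPM or less in every library, and Cd3g and Cd28 were at 0 in knockout-labelled 10-week replicate 2. Of 7 epithelial markers, 6 had higher values in knockout-labelled cells at 10 weeks and 1 passed, with sums of 296.9 to 401.1 CPM, against 177 to 216.3 CPM in wild type. Their part in the level of Il15ra was not tested. In bulk RNA fewer cells of a type and less RNA per cell cannot be told apart.

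**Figure D3:**
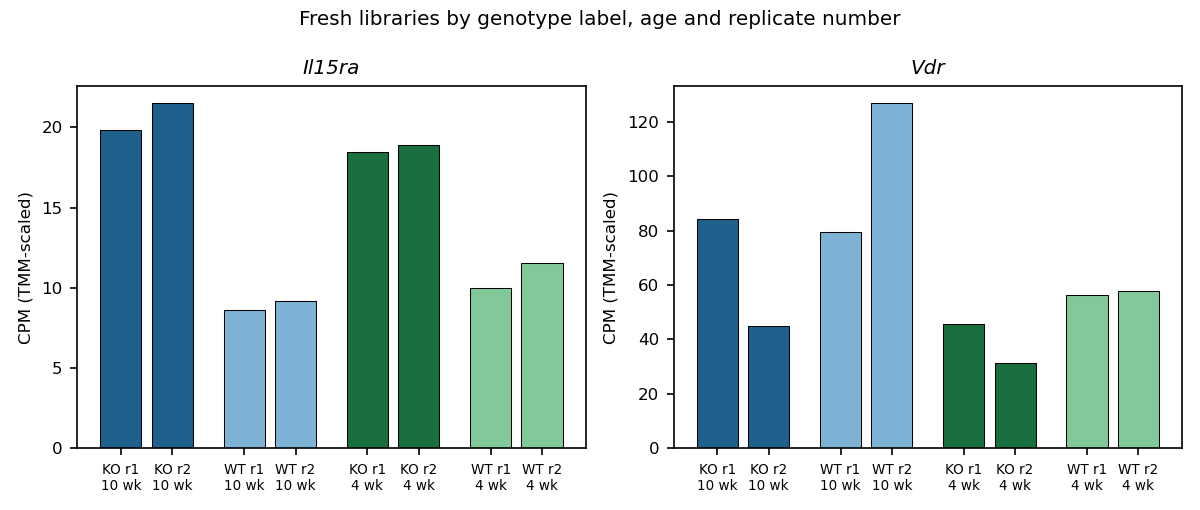
Level of Il15ra and Vdr (CPM, linear axes from 0) in the 8 fresh libraries, with a bar for each library (r1 and r2 are the replicate numbers). Il15ra is between 18.5 and 21.5 CPM in the 4 knockout-labelled libraries and between 8.61 and 11.5 CPM in the 4 fresh wild-type ones, while the Vdr values of the genotypes overlap at 10 weeks.

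In culture Il15ra was low, at 3.93 and 4.28 CPM with VD3, against 4.54 and 6.23 CPM without, with no overlap and no call (adjusted p = 0.285, edgeR). Untreated culture was 1.66-fold lower than wild type at 10 weeks (log2 -0.73 ± 0.19, adjusted p = 0.00827, edgeR) and 2.02-fold lower than at 4 weeks (adjusted p = 0.00116). The 10-week call was lost without untreated replicate 1 (adjusted p = 0.0847, edgeR). Its ligand Il15 was at 3.39 and 2.60 CPM with VD3, against 4.27 and 5.91 CPM without. The difference of log2 -0.74 ± 0.28 did not pass (adjusted p = 0.124, edgeR). In fresh cells Il15 was at 4.14 and 5.24 CPM in knockout-labelled 10-week cells, 5.91 and 5.85 CPM in wild type at 10 weeks, 4.70 and 3.85 CPM in knockout-labelled 4-week cells and 4.68 and 4.15 CPM in wild type at 4 weeks. No comparison of Il15 passed.

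The counts of these genes stand against the share of all genes called by the same rule. The genes were chosen with earlier results of these data known, so the shares do not test whether they stand out. Of the 8 tested, 2 were higher and 1 lower with VD3, where 10.6% of all genes were called (5% higher and 5.63% lower), and the median log2 difference was -0.40, against 0 over all genes. Against wild type at 10 weeks, untreated culture called 2 higher and 5 lower (42.4% of all genes, 21.2% in either direction; median log2 -0.96, against -0.02), and against wild type at 4 weeks 1 higher and 5 lower (39.7%, with 20.1% higher and 19.5% lower; median log2 -1.11, against -0.02). In knockout-labelled against wild-type cells 1 was higher at 10 weeks (0.11% of all genes were called, 0.0863% as higher), 0 passed at 4 weeks (0.667%) and 1 was higher over both ages (0.996%, with 0.612% higher). The interaction called 0 of the 8 (0.188% of all genes). At an unadjusted p under 0.05, 1 of the 8 passed edgeR's test at 4 weeks (12% of all genes) and 0 in the interaction (8.65%), and DESeq2 called 1 and 0. With age, 1 of 8 was higher at 10 weeks in wild type (2.11% of all genes called, 1.4% as higher), and 1 was higher and 1 lower in knockout-labelled cells (9.73%, with 4.89% higher and 4.83% lower).

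**Figure D4:**
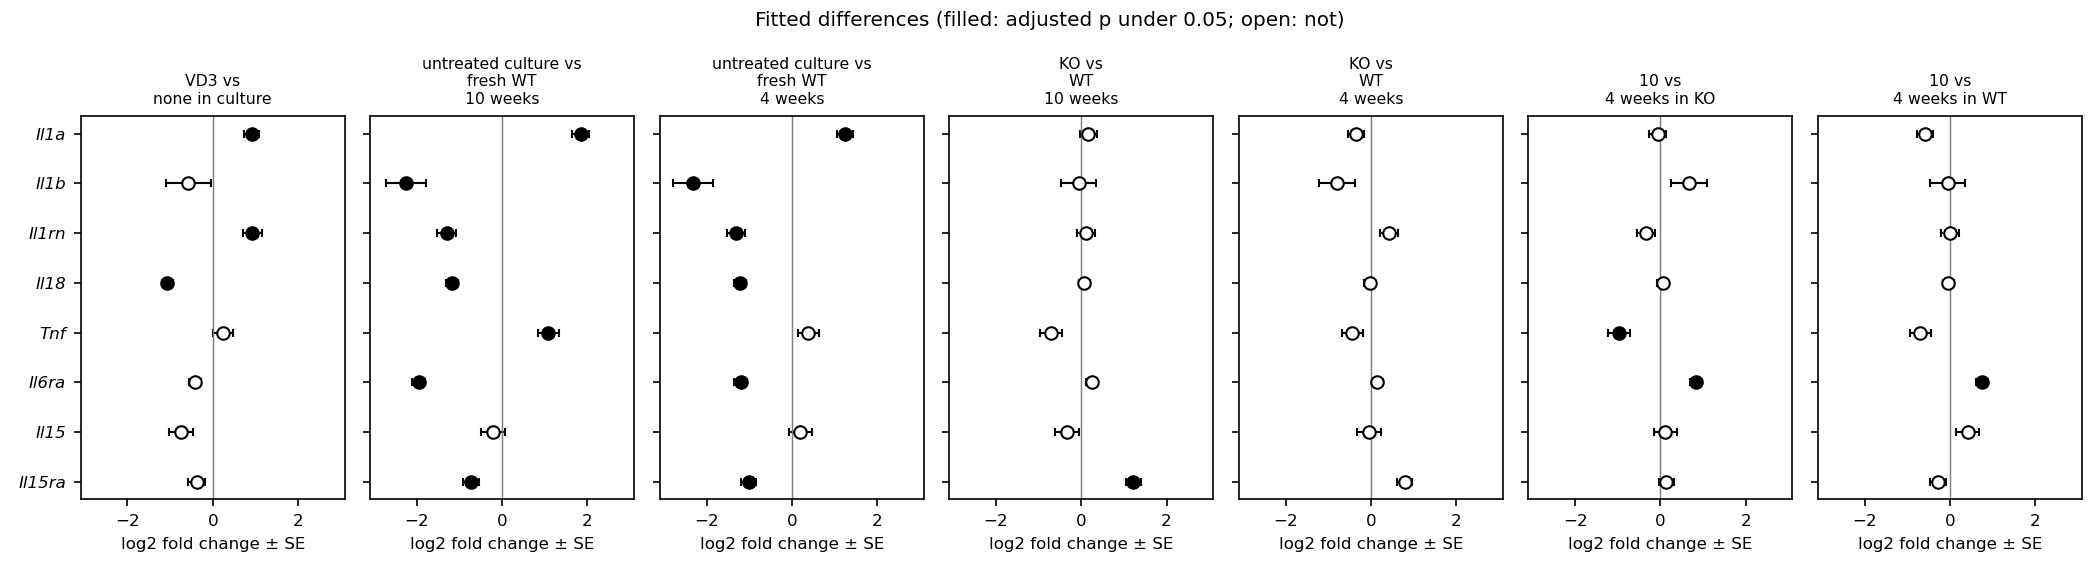
Log2 fold change of the 8 tested genes between the groups named above each panel, first-named group over the other, with bars of 1 SE; filled points passed an adjusted p of 0.05. Il15ra at 1.22 is the filled point for knockout-labelled against wild type at 10 weeks, and Il18 at -1.06 is the filled point below 0 for VD3.

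Genes of the same pathways were read from lists written with earlier results of these data known. With VD3, 14 of 68 listed genes were called (20.6%, against 10.6% of all genes), 5 higher and 9 lower. Of 18 tested genes of interleukin-1 and interleukin-18 signalling 2 were lower and the other 16 did not pass. One was Pycard, the inflammasome adaptor, at 47.7 and 60.1 CPM with VD3 against 86.8 and 89.5 CPM without (log2 -0.71 ± 0.12, adjusted p = 0.00364, edgeR). The other was Gsdmd, the pore former of pyroptosis (log2 -0.41 ± 0.10, adjusted p = 0.0222), a call lost without VD3 replicate 1 (0.228) or untreated replicate 1 (0.142). Of 12 TNF pathway genes 2 were higher and 3 lower. Tnfrsf1b, a TNF receptor, was at 709.3 and 770.4 CPM with VD3 against 1976 and 1282 CPM without (log2 -1.14 ± 0.19, adjusted p = 0.00319, edgeR). Tnfaip2, a gene first found as induced by TNF, was lower too (log2 -0.99 ± 0.16, adjusted p = 0.00181, edgeR). The higher ones were Cflar, an inhibitor of caspase-8, at 275.5 and 231.2 CPM with VD3 against 164.5 and 113.8 CPM without, and Tnfaip3, which restrains NF-kB, at 163.3 and 128.1 CPM against 84.0 and 65.3 CPM. Their adjusted p-values were 0.00467 and 0.00636 (edgeR), and both calls were lost without VD3 replicate 1 (0.0534 and 0.0718).

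Of 11 genes of interleukin-6 and interleukin-10 signalling, 1 was higher with VD3 (Il6st, the shared signalling chain of the interleukin-6 family, log2 0.52 ± 0.12, adjusted p = 0.0195, edgeR) and 2 lower, among them Il10ra, a chain of the interleukin-10 receptor (log2 -0.78 ± 0.17, adjusted p = 0.0141). The Il10ra call was lost without VD3 replicate 1 (0.132) or untreated replicate 2 (0.0503). The other lower one was Jak2, a kinase of cytokine receptors (log2 -0.51 ± 0.13, adjusted p = 0.0241, edgeR), lost without VD3 replicate 1 (0.235) or untreated replicate 1 (0.135). The call of Il6st was lost without VD3 replicate 1 (0.222) or either untreated replicate (0.0514 and 0.0921). No gene of 6 in the interleukin-15 list was called (1 at an unadjusted p under 0.05, as for 23.5% of all genes). Of 12 NF-kB genes 1 was lower, Nfkbie, an inhibitor of NF-kB (log2 -1.06 ± 0.26, adjusted p = 0.0251, edgeR), lost without VD3 replicate 1 (0.226) or untreated replicate 1 (0.201). Among 9 other cytokines tested, 2 were higher and 1 lower. Lif, a cytokine of the interleukin-6 family, was at 37.8 and 32.8 CPM with VD3 against 3.01 and 2.83 CPM without (log2 3.59 ± 0.39, adjusted p = 0.000176, edgeR), and the call held with each library left out. Osm, of the same family, was at 25.6 and 18.1 CPM with VD3 against 4.54 and 5.34 CPM without (log2 2.16 ± 0.45, adjusted p = 0.00928, edgeR). The Osm call was lost without VD3 replicate 1 (0.0763) or untreated replicate 1 (0.0774). The lower one was Il16, a chemoattractant of lymphocytes, at 14.8 and 33.9 CPM with VD3 against 47.5 and 63.1 CPM without (log2 -1.19 ± 0.28, adjusted p = 0.0182, edgeR), lost without VD3 replicate 1 (0.0569) or untreated replicate 2 (0.0845).

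In knockout-labelled against wild-type cells 1 gene of all lists was called at 4 weeks, Nfkbia, an inhibitor of NF-kB. It was at 179.4 and 156.3 CPM against 81.9 and 90.0 CPM (log2 0.97 ± 0.14, adjusted p = 0.00819, edgeR). The call was lost without knockout-labelled replicate 1 (0.0964), wild-type replicate 1 (0.113) or wild-type replicate 2 (0.0509), and with the conflicting 10-week libraries exchanged (0.0557). Over both ages Nfkbia was the 1 listed gene called (log2 0.68 ± 0.10, adjusted p = 0.0105, edgeR). That call was lost with the exchange (0.35) and without wild-type 10-week replicate 1 (0.0633), knockout-labelled 4-week replicate 1 (0.0692) or wild-type 4-week replicate 1 (0.0576). Of 68 listed genes tested, edgeR called 0 at 10 weeks and 0 in the interaction, with 13 (19.1%) and 4 (5.88%) at an unadjusted p under 0.05, against 9.76% and 8.65% of all genes, and DESeq2 called 1 and 0.

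With age, 7 of the 68 listed genes were called in knockout-labelled cells (10.3%, against 9.73% of all genes), 6 higher and 1 lower at 10 weeks, and 1 was called lower in wild type (1.47%, against 2.11%). In knockout-labelled cells 3 of 11 genes of interleukin-6 and interleukin-10 signalling were higher. Stat3, the transcription factor both cytokines activate, was at 312.9 and 389.9 CPM at 10 weeks against 231.4 and 220.3 CPM at 4 weeks (log2 0.64 ± 0.11, adjusted p = 0.00497, edgeR). Socs3, a feedback inhibitor of that pathway, was at 13.4 and 29.6 CPM against 7.52 and 5.67 CPM (log2 1.68 ± 0.34, adjusted p = 0.0112, edgeR). Il10ra was at 110.6 and 70.7 CPM against 59.7 and 56.7 CPM (adjusted p = 0.0368, edgeR). The call of Stat3 was lost without 4-week replicate 2 (0.0713), that of Socs3 without 10-week replicate 2 (0.0804) or 4-week replicate 2 (0.122), and that of Il10ra without 10-week replicate 1 (0.281) or either 4-week replicate (0.131 and 0.218). Birc3, an inhibitor of apoptosis in TNF signalling, and Il18bp, which binds and blocks interleukin-18, were higher as well (adjusted p = 0.0368 and 0.0474, edgeR), each lost with any of the 4 libraries left out (0.0766 to 0.194 and 0.0772 to 0.282). Il7, a growth factor of lymphocytes, had 34 counts at 10 weeks against 1 at 4 weeks, a ratio of 34.8 (95% interval 5.83 to 1410), and its call (adjusted p = 0.015, edgeR) was lost without 10-week replicate 1 (0.0673) or either 4-week replicate (0.0646 and 0.128). Ebi3, a subunit of interleukin-27 and interleukin-35, was at 0.536 and 1.17 CPM in 10-week knockout-labelled cells against 6.42 and 4.76 CPM at 4 weeks, and in wild type at 0.738 and 1.58 CPM at 10 weeks against 6.91 and 4.92 CPM at 4 weeks. The log2 difference was -2.80 ± 0.48 in knockout-labelled cells (adjusted p = 0.00506, edgeR) and -2.40 ± 0.46 in wild type (0.0242). The wild-type call was lost without 10-week replicate 1 (0.246) or either 4-week replicate (0.134 and 0.0599), and the knockout-labelled one without 10-week replicate 1 (0.0513).

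Markers of alveolar macrophages and of other cells also moved in the comparisons of culture and age, and their part in the results was not tested. Among 12 macrophage markers, 3 were called higher with VD3 (Car4, Itgax and Mrc1) and 3 lower (Krt79, Fabp4 and Ear2), where 10.6% of all genes were called. With VD3, dendritic cell markers summed to 291.8 to 294.7 CPM, against 339 to 529.5 CPM without, with Cd209a at 0 in all 4 libraries. Most of that sum was Ly75, at 264.8 and 258.9 CPM with VD3 against 486.7 and 301.5 CPM without. Of 11 tested, 4 had higher and 7 lower values and 0 were called, Ly75 included (adjusted p = 0.0572, edgeR). Of 9 T cell markers tested, 5 had higher and 4 lower values with VD3 (median log2 0.725), and 1 was called. It was Cd2, at 120.2 and 134.8 CPM with VD3 against 217.2 and 224.6 CPM without, and it makes up nearly all of their sum. Cd28 was at 2.66 and 2.32 CPM with VD3 against 0.274 and 1.05 CPM without, and Lck at 1.87 and 1.54 CPM against 0.547 and 0.324 CPM. Cd3d went the other way, at 0.0492 and 0 CPM with VD3 against 0.328 and 0.162 CPM without. Cd28, Lck and Cd3d did not pass (adjusted p = 0.193, 0.304 and 0.169, edgeR). In untreated culture epithelial markers summed to 13.6 to 14.3 CPM, against 177 to 216.3 CPM in 10-week and 42.8 to 87.6 CPM in 4-week wild type. Most of the 10-week wild-type sum was Epcam, at 133.5 and 159.1 CPM, against 4.76 and 1.30 CPM in untreated culture. Of 7 tested, 4 were called lower against 10-week and 3 against 4-week wild type (edgeR). Monocyte markers summed to 2.51 to 6.07 CPM in untreated culture, against 10.8 to 15.5 CPM in fresh wild type. Against 10-week wild type, 7 of 11 dendritic cell markers (median log2 -2.71) and 4 of 9 T cell markers (median log2 -1.98) were called lower in untreated culture. Against 4-week wild type 5 dendritic cell markers were lower and 1 higher, and 2 T cell markers lower. Of the 12 alveolar macrophage markers 7 were lower and 2 higher, Fabp4 and Itgax, against either age. With age, epithelial markers were at 296.9 to 401.1 CPM in 10-week knockout-labelled cells, against 55.6 to 214 CPM at 4 weeks, and 2 of 7 were higher. B cell markers were at 5.59 CPM or less in sum in every library.

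In untreated culture 37 of the 68 listed genes were called against 10-week wild type (54.4%, against 42.4% of all genes) and 36 against 4-week wild type (52.9%, against 39.7%), so calls in these lists are read beside a high share over all genes. Against 10-week cells, 4 of 18 interleukin-1 and interleukin-18 genes were higher and 8 lower, and against 4-week cells 3 and 7. Pycard was higher (log2 1.45 ± 0.13, adjusted p = 4.96e-06, edgeR) than in 10-week wild type. Adam17, the protease that sheds TNF, was higher (log2 1.34 ± 0.12, adjusted p = 6.54e-06, edgeR), as was Il2rg, the shared gamma chain (log2 1.85 ± 0.21, adjusted p = 3.7e-05). Il6st was lower (log2 -1.54 ± 0.13, adjusted p = 2.87e-06, edgeR). Of the NF-kB list 4 of 12 were higher and 1 lower against 10 weeks, a share near that of all genes, and 7 and 0 against 4 weeks. Relb, a subunit of NF-kB, was higher than in 10-week wild type (log2 1.23 ± 0.22, adjusted p = 0.000893, edgeR). Osm was at 4.54 and 5.34 CPM in untreated culture against 33.9 and 31.6 CPM in 10-week wild type (log2 -2.74 ± 0.45, adjusted p = 0.000469, edgeR).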

How the data were processed

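RNA-seq of 12 libraries was analysed from the authors' deposited table of raw counts per gene. TopHat2, edgeR and mm9 are named, per the submitters' processing notes. Versions, counting tool, strand setting and annotation go unnamed (not given in the sources used here). Without strand, reads of overlapping genes cannot be told apart. All columns matched a library. The deposited log2 table was not used.

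Differences were tested by quasi-likelihood in edgeR 4.0.16 (R 4.3.3), with TMM scaling and filterByExpr (minimum count 10, minimum total 15). One model of group means was fitted to the 12 libraries together (6 residual degrees of freedom). Adjustment was by Benjamini-Hochberg over 12748 genes in each of 9 contrasts, with a threshold of 0.05. Errors are SE of log2 fold changes. Replicates differed beyond sampling noise (chi-square per degree of freedom 10.4 to 55.9). The code was tested on simulated data. Levels per kb used exon lengths of GENCODE M21. Low counts were compared by ratios with exact intervals.

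The 10 genes and the lists were chosen with earlier results of these data known. A fold change is given where the unadjusted p was under 0.05, and called genes of a list are named by smallest p, up to 4 per list and contrast, and for untreated culture 1 per list against 10-week wild type. Alternatives were DESeq2 1.42.0, its size factors, an unfiltered table, a filter of 5 CPM in 2 libraries, the compared groups alone, a replicate block, exchange of the libraries with conflicting labels, and each library left out.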

Additional observations from a re-analysis of the deposited data

Results flagged for a closer look

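The values of Il15ra with age lay in opposite directions in the genotypes, though neither age difference passed edgeR's test (adjusted p = 0.637 in knockout-labelled cells and 0.433 in wild type). Both knockout-labelled 10-week libraries (19.8 and 21.5 CPM) were above both 4-week ones (18.5 and 18.9 CPM), and both wild-type 10-week libraries (8.61 and 9.18 CPM) were below both 4-week ones (9.99 and 11.5 CPM). Groups without overlap made up 57.3% and 54.6% of all genes in these comparisons. The age difference in knockout-labelled cells minus that in wild type was 0.42 ± 0.25 (log2, SE), and this interaction did not pass edgeR's test (adjusted p = 0.68).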

How the results depend on the processing

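For the cytokine genes 28 gene-level results, 21 of them called, were refitted 333 times. In 296 refits the direction and the status as called or not were kept. A call was lost in 27 and gained in 10, and 0 reversed. Losses were uneven. With a library left out, Tnf with age in knockout-labelled cells lost its call in 4 of 4 fits. Il15ra at 10 weeks and Il6ra with age in wild type lost theirs in 3 of 4, and Il18 with VD3 in 0 of 4. For 35 called results of listed genes, 339 of 403 refits kept the call, 64 lost it and 0 reversed. Counts of called genes moved more. For knockout against wild type at 10 weeks the count was 14, and 149 with DESeq2, 503 with no filter, 6 with the conflicting libraries exchanged, 26 with the compared groups only, 2 without the high-Xist libraries (chosen after seeing the data) and 1 to 71 with a library left out. At 4 weeks it was 85, and 261, 690, 42 and 635 under the same first 4 settings, with 26 to 39 with a library left out. Over both ages it was 127, and 369, 791, 29 and 273, with 43 without the high-Xist libraries and 24 to 184 with a library left out. The interaction gave 24, and 89, 392, 12 and 52, with 10 without the high-Xist libraries and 5 to 15 with a library left out. With age in wild type it was 269, and 676 with DESeq2, 1223 with no filter, 606 with the compared groups only and 58 to 153 with a library left out. With age in knockout-labelled cells it was 1240, and 2059 with no filter, 821 with the exchange, 525 without the high-Xist libraries and 242 to 651 with a library left out. For VD3 it was 1356, and 644 with the compared groups only and 545 to 1345 with a library left out. For untreated culture, counts stayed within 1.5 times of 5399 (3956 to 4804 with a library left out) and of 5055 (3705 to 4079). The exchange also moved the share of higher calls at 10 weeks to 16.7%, against 78.6%. The cause of these shifts was not tested.

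The labels do not say that a replicate number or a title range marks a shared animal or day. Over the 4 groups with 1 library of each title range (both cultured and both 10-week groups), deviations within a range correlated at 0.0482 to 0.361 in 6 pairs of groups, with 5 of the 6 over 0.1. The correlation of same-numbered deviations was 0.166 at 10 weeks, -0.176 at 4 weeks, -0.0421 with age in wild type, 0.0391 with age in knockout-labelled cells and 0.361 in culture by title range. With the replicate block the counts were 24 at 10 weeks, 54 at 4 weeks, 72 over both ages, 11 for the interaction, 200 with age in wild type, 1098 with age in knockout-labelled cells and 1730 for VD3. The crossed pairing at 4 weeks, added after seeing the data, gave 72. Under the block Tnf with age in knockout-labelled cells lost its call (adjusted p = 0.0534, edgeR), and Il6ra with VD3 passed (0.0382).

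Calls also changed under single settings. Il15ra at 4 weeks passed with DESeq2 (adjusted p = 0.0236), no filter (0.0112) and the compared groups only (0.0229; edgeR). Il1rn with VD3 was lost with the compared groups only (0.0505). In refits other than those with 1 library left out, Il15ra in untreated culture lost its call in 2 of 8 against 10-week wild type. Against 4-week wild type it lost the call in 1 of 7. Tnf passed with no filter in knockout-labelled against wild-type cells at 10 weeks (0.00527) and over both ages (0.000263; edgeR). With 1 count worth 0.0483 to 0.0903 CPM, Il6 and Il10 had too few counts for edgeR's test. For Il6 the counting intervals of the comparisons with wild type at 4 weeks left out a ratio of 1, and for Il10, with 1 count in all, no difference was detectable at this depth.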

Other observations

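For each tested gene, the genes with the most similar levels were ranked by Pearson's r of log2(CPM + 1) over the 12 libraries, among 9250 genes averaging at least 5 CPM. These points share libraries and depth, and the split between fresh and cultured cells enters every value, so they are descriptions. For Il15ra the closest were Cd300lf (r = 0.984), an inhibitory receptor of myeloid cells, Galnt12 (0.958) and Klhl6 (0.957). For Il18 they were Adrbk2 (0.994), Dna2 (0.992) and Scp2 (0.988). For Il1a they were Mrps18a (0.984), Fam198b (0.983) and Snx12 (0.983). The closest gene to Il15 was Cyp27a1 (0.905), a mitochondrial sterol hydroxylase that can also hydroxylate vitamin D3.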
